A study of Mus musculus with 473 samples.

Results

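Growth hormone-releasing hormone (Ghrh), the galanin precursor (Gal), 4 hormone receptors (Ghr, Esr1, Prlr and Calcr), Igsf1 and Arhgap36 are described here, 8 of the 28952 features in the table, in single mouse neurons sorted for a tyrosine hydroxylase (Th) reporter. The 8 genes were listed by name, with earlier results of these data known, and all were found in the table. Cells came from Th:EGFP animals, Tg(Th-EGFP)DJ76Gsat, in which a bacterial artificial chromosome with Th sequences drives enhanced green fluorescent protein (eGFP), so the reporter shows where that transgene is on and not Th itself. The line was kept on Swiss Webster by crossing hemizygous males with wild-type females, and all groups carry the same transgene, with no other genotype or treatment compared. The 5 groups were forebrain (FB, which the labels give as hypothalamus) and midbrain (MB) at embryonic day 15.5 (E15.5), and FB, MB and olfactory bulb (OB) at postnatal day 7 (P7). Each region was pooled from 4 embryos or 5 pups, so a group is 1 pool, its cells are not replicates, and no test between groups was possible. P7 tissue alone was digested for longer and cleaned on a density gradient, and each age was sorted on 1 date, so age, digestion, sort date and library plates cannot be told apart.

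Ghrh is released by neurons of the hypothalamic arcuate nucleus and drives growth hormone secretion by the pituitary, and growth hormone acts back on the hypothalamus through its receptor, Ghr. Galanin is a neuropeptide made in many of these neurons, and some Ghrh neurons are known to carry Th and GABA synthesis enzymes as well. Esr1 is the nuclear oestrogen receptor alpha, Prlr the prolactin receptor, Calcr the calcitonin receptor, which becomes an amylin receptor with RAMP proteins, Igsf1 a membrane glycoprotein whose loss causes central hypothyroidism in people, and Arhgap36 a protein known to lower protein kinase A activity.

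The genes lie, on GRCm38 with GENCODE M21, at chromosome 2, 157329497 to 157347506, minus strand (Ghrh), chromosome 19, 3409915 to 3414544, minus strand (Gal), chromosome 15, 3317760 to 3583492, minus strand (Ghr), chromosome 10, 4611593 to 5005614, plus strand (Esr1), chromosome 15, 10177238 to 10349180, plus strand (Prlr), chromosome 6, 3685680 to 3764714, minus strand (Calcr), and on chromosome X at 49782536 to 49797749, minus strand (Igsf1), and 49463945 to 49500244, plus strand (Arhgap36). Ghrh and Gal, the peptide genes that were highest together in single cells, are shown by the sequence around their start sites, from RefSeq on GRCm38.p6, 250 bases before to 50 bases after each start, 5′ to 3′ on the gene's own strand. Capitals mark TAATTA, a letter string common in homeodomain sites, and TATAAA, the TATA-box string, both searched on both strands, and no 2 matches overlapped.
Ghrh at the downstream start (chr2:157337377-157337676, minus strand): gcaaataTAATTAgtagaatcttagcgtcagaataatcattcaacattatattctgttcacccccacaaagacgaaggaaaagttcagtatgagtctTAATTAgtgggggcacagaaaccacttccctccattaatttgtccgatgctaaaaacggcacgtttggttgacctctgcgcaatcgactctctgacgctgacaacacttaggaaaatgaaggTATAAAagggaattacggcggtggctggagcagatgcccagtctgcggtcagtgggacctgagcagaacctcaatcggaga
Ghrh at the upstream start (chr2:157346606-157346905, minus strand): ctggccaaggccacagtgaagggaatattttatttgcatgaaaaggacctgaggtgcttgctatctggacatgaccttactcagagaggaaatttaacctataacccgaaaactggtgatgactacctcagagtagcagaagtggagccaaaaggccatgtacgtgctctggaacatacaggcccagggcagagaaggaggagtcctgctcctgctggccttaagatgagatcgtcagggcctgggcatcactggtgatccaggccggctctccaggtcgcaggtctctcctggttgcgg
Gal (chr19:3414495-3414794, minus strand): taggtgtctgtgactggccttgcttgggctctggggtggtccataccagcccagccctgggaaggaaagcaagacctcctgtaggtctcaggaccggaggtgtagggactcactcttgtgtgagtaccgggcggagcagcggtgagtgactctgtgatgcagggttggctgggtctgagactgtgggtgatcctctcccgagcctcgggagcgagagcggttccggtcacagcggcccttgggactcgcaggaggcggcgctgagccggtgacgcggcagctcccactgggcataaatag
The downstream Ghrh window held 2 matches to TAATTA and 1 to TATAAA, and the upstream Ghrh window and the Gal window held neither. Of 32851 windows of the same length, 5.29% held TAATTA and 13.6% held TATAAA. Ghr also had TATAAA in 1 of its 2 windows, and the other members' windows held neither string. The table gives 1 value per gene, so which Ghrh start was used in these cells was not read from it.

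Levels are in FPKM, a fragment count corrected for transcript length and for the mapped fragments of each cell, so levels of different genes are on 1 scale per length. A gene was taken as found in a cell from an FPKM of 1 upward. Each share is given with its exact 95% interval (Clopper-Pearson), which covers counting error only. Of 473 cells, 396 passed the authors' quality control. On 2 of the 3 P7 plates the number of genes in the labels did not follow the column of the same name (correlations of -0.0338 and -0.0519 across cells), and it did once the columns of these plates were exchanged well by well (0.999 on both). The main values therefore come from the 3 plates whose columns match by name, 249 passed cells. The embryonic groups have 84 (FB) and 88 (MB) of them and the postnatal groups 31 (FB), 30 (MB) and 16 (OB). The 147 passed cells of the exchanged plates (FB 50, MB 45 and OB 52) are given beside them as a second set of cells from the same pools. The label gene count per cell had a median between 3310 (P7 OB) and 6227.5 (E15.5 MB) in the main cells, and median summed FPKM per cell was 517940 in P7 FB on the matching plate and 220679 on the exchanged plates, so levels were read within a plate set. Doublets were not called.

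In the P7 forebrain the 8 genes did not spread evenly. The labels divide these cells into clusters P7.FB.1 and P7.FB.2, and 7 of the 8 genes had a higher mean in P7.FB.1 (10 cells) than in P7.FB.2 (21 cells). Ghrh averaged 7368 ± 3626 FPKM in P7.FB.1 (SD over 10 cells) and 104 ± 306 in P7.FB.2 (21 cells), Gal 2074 ± 1406 and 158 ± 321, Arhgap36 421 ± 331 and 27.8 ± 42.4, and Esr1 84.3 ± 76.7 and 1.55 ± 6.74. Prlr ran the other way and was listed at 0 in all 10 P7.FB.1 cells. The clusters were made by the authors from these cells, so these differences describe the clusters and are no test of them.

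Ghrh was at 5380, 6028, 6286, 6505, 6718, 8132, 10154, 11951 and 12523 FPKM in 9 of the 10 P7.FB.1 cells, and listed at 0 in the 10th. The lowest of these 9 values lay above every P7.FB.2 cell. In P7.FB.2, Ghrh was found in 6 of 21 cells, at 1306, 560, 293, 16.9, 5.03 and 3.80 FPKM, and listed at 0 in the others. The exchanged plates had Ghrh in 16 of 16 P7.FB.1 cells, from 688 through a median of 2874 to 10102 FPKM. There the P7.FB.2 cells had it in 11 of 34, the highest at 2178 FPKM and the second highest at 348, so there 1 P7.FB.2 cell lay inside the range of P7.FB.1. The share of P7.FB.1 cells with Ghrh was 90% (interval 55.5 to 99.7%) on the matching plate and 100% (79.4 to 100%) on the exchanged plates, against 28.6% (11.3 to 52.2%) and 32.4% (17.4 to 50.5%) in P7.FB.2.

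Gal was found in the same P7.FB.1 cells as Ghrh, and outside that cluster it was more widely spread than Ghrh. Whether their levels rose together within P7.FB.1 was not tested. Gal was listed at 0 in the same single P7.FB.1 cell and lay between 992 and 5128 FPKM in the other 9, with a median over the 10 cells of 1904. Gal was found in 13 of 21 P7.FB.2 cells (61.9%, interval 38.4 to 81.9%), the highest at 1463 FPKM and the next at 365. The highest P7.FB.2 cell therefore lay inside the Gal range of P7.FB.1, while Ghrh was listed at 0 in that cell. Among the exchanged cells Gal was found in 16 of 16 P7.FB.1 cells (92.9 to 1989 FPKM) and 18 of 34 P7.FB.2 cells, so the clusters overlapped more there. The highest 2 of those P7.FB.2 cells, at 2347 and 1865, were again listed at 0 for Ghrh. Ghrh and Gal were in the same cell in 13 of 31 P7 FB cells (41.9%, interval 24.5 to 60.9%), Ghrh without Gal in 2 and Gal without Ghrh in 9. The same counts on the exchanged plates were 21 of 50 (42%, interval 28.2 to 56.8%), 6 and 13.

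**Figure D1:**
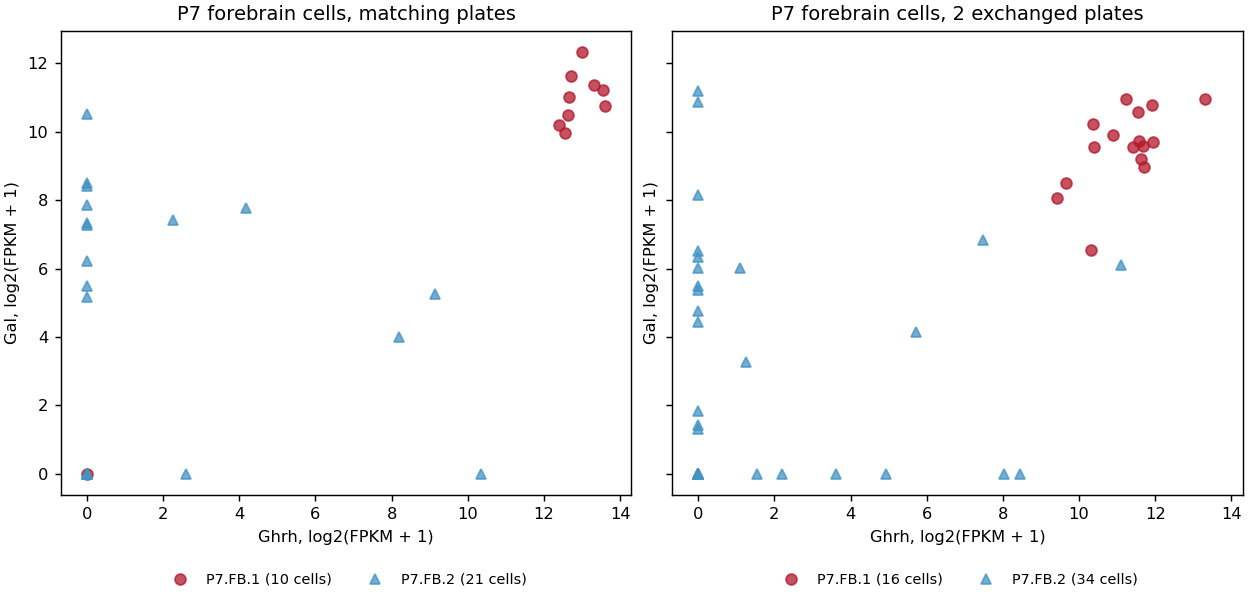
Ghrh (x axis) against Gal (y axis) in single P7 forebrain cells, both as log2(FPKM + 1), with P7.FB.1 as circles and P7.FB.2 as triangles, on the matching plate (left) and the exchanged plates (right). The P7.FB.1 cells lie together at the top right except the cell listed at 0 for both genes, and many P7.FB.2 cells lie on the y axis, with Gal and no Ghrh.

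On the matching plate the receptors separated into those that went with Ghrh and one that did not. For Calcr this was less clear, as its cluster means were within 2-fold on the exchanged plates. Ghr, the growth hormone receptor, was found in 8 of 10 P7.FB.1 cells (80%, interval 44.4 to 97.5%), from 7.04 to 135 FPKM with a median over all 10 of 39.2. Ghr was found in 1 of 21 P7.FB.2 cells, at 73.1 FPKM, which lies within that range. Esr1, the oestrogen receptor, was found in 9 of 10 P7.FB.1 cells, from 15.6 to 229 FPKM, and in 2 of 21 P7.FB.2 cells, at 30.95 and 1.13 FPKM. The P7.FB.2 cell with Esr1 at 30.95 was also the one with Ghr, so all 9 P7 FB cells with Ghr on the matching plate had Esr1, against 13 of 14 on the exchanged plates. That cell had 4569 FPKM of Th and the most Slc6a3, the dopamine transporter, of the P7 FB cells, and without it the difference between the clusters grew from 3.55 to 5.71 on the log2 scale for Ghr and from 5.06 to 6.30 for Esr1. In the exchanged set Ghr was found in 12 of 16 P7.FB.1 cells and 2 of 34 P7.FB.2 cells, and Esr1 in 16 of 16 and 1 of 34.

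Calcr was found in 8 of 10 P7.FB.1 cells, from 45.8 to 337 FPKM, and in 4 of 21 P7.FB.2 cells, at 275, 231, 152 and 40.9 FPKM. The groups overlapped in level, and what differed was the share of cells. The exchanged plates had Calcr in 9 of 16 P7.FB.1 cells and 8 of 34 P7.FB.2 cells, and the cluster means, 42.3 ± 56.7 and 22.8 ± 45.8 FPKM, were within 2-fold. All 12 P7 FB cells with Calcr on the matching plate also had Arhgap36, and 15 of 17 did on the exchanged plates. Prlr was found in 6 of 21 P7.FB.2 cells (28.6%, interval 11.3 to 52.2%), at 120, 54.7, 39.7, 10.8, 4.63 and 3.61 FPKM, and in none of 10 P7.FB.1 cells (0%, interval up to 30.8%). The exchanged plates gave 6 of 34 and 0 of 16 (interval up to 20.6%). Of the 6 P7 FB cells with Prlr, 1 had Ghrh, at 16.9 FPKM, and 6 had Arhgap36, and the counts on the exchanged plates were the same, 1 and 6 of 6. Slc6a3 was in 3 of those 6 cells in both sets, against 2 of the 25 P7 FB cells without Prlr on the matching plate and 9 of 44 on the exchanged plates.

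Igsf1, like Gal and Arhgap36, was frequent in both clusters. It was found in 7 of 10 P7.FB.1 cells (21.4 to 327 FPKM) and 16 of 21 P7.FB.2 cells (6.21 to 117 FPKM), with medians over all cells of 52.6 and 41.4. It was in 15 of 16 and 17 of 34 cells on the exchanged plates. Arhgap36 was found in 9 of 10 P7.FB.1 cells, from 56.04 to 1107 FPKM with a median over the 10 cells of 414, and in 14 of 21 P7.FB.2 cells, of which the highest had 176. Of the P7.FB.1 cells, 8 lay above that highest P7.FB.2 cell. The exchanged plates gave 15 of 16 cells at a mean of 188 ± 142 FPKM against 19 of 34 at 13.1 ± 21.9.

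**Figure D2:**
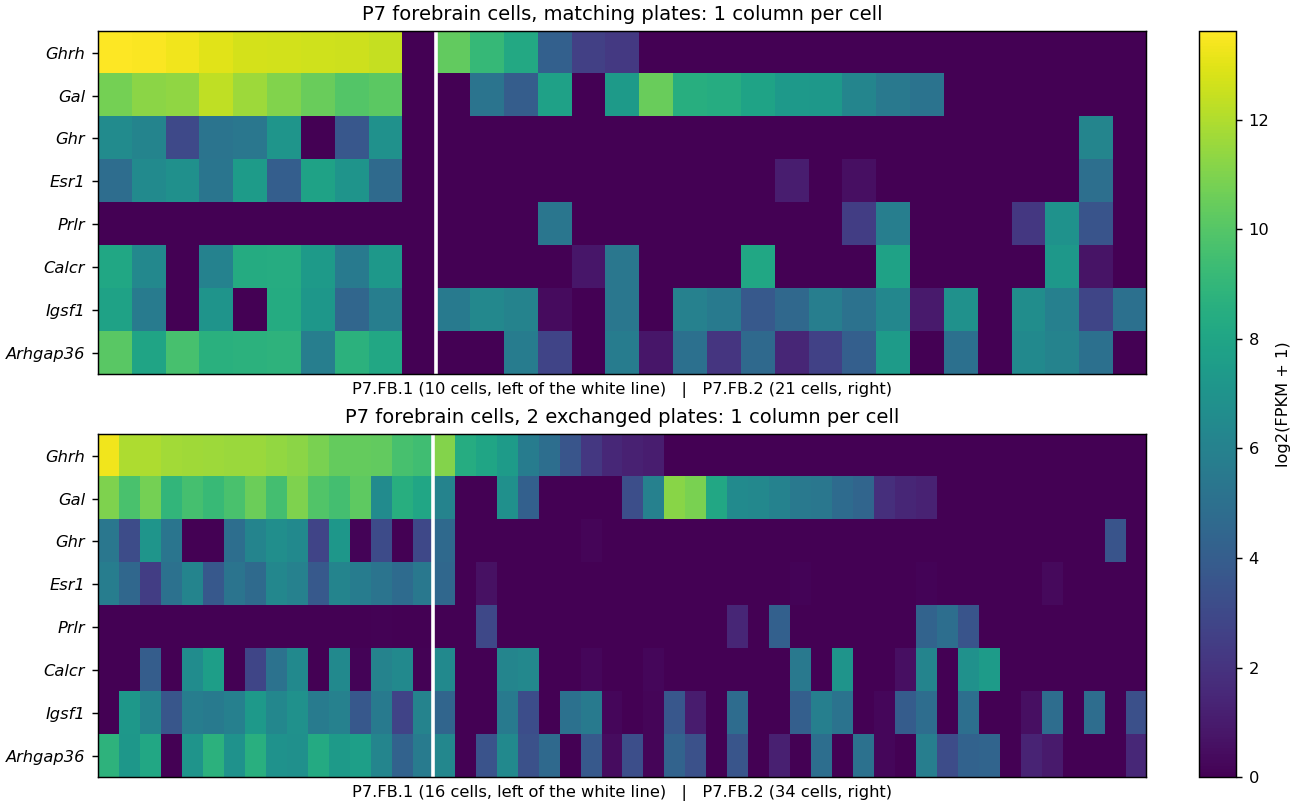
Levels of the 8 genes (rows) in every passed P7 forebrain cell (columns), coloured by log2(FPKM + 1), on the matching plate (top) and the exchanged plates (bottom), with P7.FB.1 left and P7.FB.2 right of the white line and cells ordered by Ghrh within a cluster. Ghrh and Gal are the brightest rows in P7.FB.1, and Ghr, Esr1, Calcr, Igsf1 and Arhgap36 are fainter there. Prlr is dark in all P7.FB.1 cells, and 1 cell of P7.FB.1 on the matching plate is dark for all 8.

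Together in 1 cell, Ghrh, Gal and Esr1 were found in 9 of 10 P7.FB.1 cells and 0 of 21 P7.FB.2 cells, and with Ghr as the fourth gene in 8 of 10. The counts for Ghrh, Gal and Esr1 on the exchanged plates were 16 of 16 and 1 of 34, and with Ghr 12 of 16 and 1 of 34. The P7.FB.2 cell with the set on the exchanged plates was the one with Ghrh at 2178 FPKM, and it had 7 of the 8 genes, all but Prlr. The median number of members per cell was 7 in P7.FB.1 and 3 in P7.FB.2, and 6 and 2 on the exchanged plates. The P7.FB.1 cell listed at 0 for all 8 had 2093 FPKM of Th, 547 of Gad1, a GABA synthesis enzyme, and 2840 of eGFP, the highest eGFP and Th of its cluster, whose other 9 cells had 0 to 195 FPKM of eGFP. Its label gives 2720 genes, the fewest in the cluster, whose median was 4520.5 against 5968 in P7.FB.2, so P7.FB.1 had more members per cell and fewer genes. Whether depth has a part in single values at 0 was not tested.

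By the rule that a mean of FPKM + 1 at least 2-fold apart is a call, 7 of 8 members were called higher in P7.FB.1 on the matching plate, where 16.4% of the 12605 features with a mean of 1 or more in either cluster were, and 1 was called lower (Prlr), where 31.7% were. The members' median difference was 3.63 on the log2 scale and that of all features -0.24. The members were chosen with earlier results of these data known, and the clusters were made from these cells. The counts and medians are therefore descriptions and no test of the members. On the exchanged plates 6 members were called higher (11.3% of all features) and 1 lower (18.4%), Calcr being within 2-fold. The size of these differences was 70.1-fold for Ghrh, 33.4-fold for Esr1, 14.7-fold for Arhgap36, 13.1-fold for Gal, 11.7-fold for Ghr, 4.26-fold for Calcr and 2.29-fold for Igsf1 in mean FPKM + 1. Leaving out the highest cell of each cluster moved the log2 difference of Ghrh from 6.13 to 7.24 and that of Ghr from 3.55 to 5.43, and it left Igsf1 within 2-fold, at 0.89 in place of 1.20.

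Genes whose level followed each member over the 31 P7 FB cells were taken by Pearson's r of log2(FPKM + 1) among 7416 features. These are descriptions over cells that share a pool and a plate, and a correlation here follows the 2 clusters. Ghrh was most like Esr1 (r = 0.79, and 0.89 over the 50 cells of the exchanged plates), Mbnl3, a muscleblind-like RNA-binding protein (0.74 and 0.76), Pcsk1n, the inhibitor of a prohormone convertase (0.73 and 0.44), Pld5 (0.69 and 0.69) and Ghr (0.68 and 0.70). Gal was most like Mbnl3 (0.68 and 0.62), Gsx1, a homeobox factor needed for Ghrh neurons (0.68 and 0.74), and Scgn, the calcium-binding protein secretagogin (0.63 and 0.75). Ghr was most like Esr1 (0.77 and 0.74), Mbnl3 (0.76 and 0.58) and Pbxip1 (0.69 and 0.37), and Esr1 was most like Mbnl3 (0.87 and 0.73), Ghrh and Ghr. Arhgap36 was most like Gabre, a GABA-A receptor subunit (0.72 and 0.68), Pld5 (0.72 and 0.69) and Dbpht2 (0.70 and 0.38). Calcr was most like Dbpht2 (0.73 and 0.35), Arhgap36 (0.70 and 0.40) and Zfp235 (0.67 and -0.14). For Prlr (Abhd5, 0.72 and -0.13, and Tmem164, 0.65 and 0.30) and Igsf1 (Tomm5, 0.66 and -0.01, Cul1, 0.64 and 0.03, and Ube2l3, 0.63 and 0.01) the most alike genes of the matching plate were not alike on the exchanged plates. Mbnl3 averaged 108 FPKM in P7.FB.1 and 3.97 in P7.FB.2, Pld5 60.5 and 3.96, and Gabre 135 and 16.9.

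Among the members themselves, Igsf1 had r of 0.22 with Ghrh and 0.06 with Esr1 over the 31 cells, and 0.49 and 0.53 over the exchanged 50. Prlr had r of -0.32 with Ghrh, -0.28 with Gal and -0.20 with Esr1, and -0.24, -0.26 and -0.23 on the exchanged plates. Ghrh and Gal had 0.60 and 0.64.

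Of the growth hormone axis list (16 genes in the table, 13 of them reaching a mean of 1), 4 were called higher in P7.FB.1 and 5 lower. Of all features compared, 16.4% were called higher and 31.7% lower. Ghsr, the ghrelin receptor, averaged 12.3 ± 16.1 FPKM in P7.FB.1 (6 of 10 cells) and 0.71 ± 1.98 in P7.FB.2 (3 of 21), and on the exchanged plates it was in 5 of 16 and 1 of 34 cells. Socs2, a feedback inhibitor of growth hormone signalling, averaged 35.9 ± 31.9 FPKM (7 of 10) and 11.2 ± 18.6 (8 of 21). Sst, somatostatin, which opposes Ghrh at the pituitary, was listed at 0 in all 10 P7.FB.1 cells and found in 8 of 21 P7.FB.2 cells, the highest at 19282 FPKM, and on the exchanged plates it was in 2 of 16 and 10 of 34. Ghrhr, the receptor for Ghrh, was found in no cell of any group at FPKM of 1 or more. The median log2 difference of the axis list was -0.10. The exchanged plates gave 4 higher and 1 lower of 10 (11.3% and 18.4% of all features), with a median of 0.68. The list thus had no common direction.

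Of the list of arcuate transcription factors, 2 of 10 were called higher in P7.FB.1 and 6 lower (16.4% and 31.7% of all features). Gsx1 averaged 69.6 ± 53.8 FPKM in P7.FB.1 (7 of 10 cells) and 9.37 ± 21.6 in P7.FB.2 (4 of 21), and was in 16 of 16 and 4 of 34 cells on the exchanged plates. In the matching set, 7 of the 9 P7.FB.1 cells with Ghrh had Gsx1. Gsx1 was found in 0 of 30 P7 MB and 0 of 16 P7 OB cells. Prox1 averaged 41.6 ± 78.2 FPKM (8 of 10) and 14.51 ± 39.3 (7 of 21). Isl1 was in 7 of 10 and 14 of 21 cells, at means of 44.4 ± 46.1 and 110 ± 104 FPKM. On the exchanged plates its means were within 2-fold. There 2 of 8 factors were called higher and 2 lower (11.3% and 18.4% of all features).

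Of 6 steroid, thyroid, leptin and melanocortin receptor genes that reached a mean of 1, 2 were called higher and 1 lower. Of all features, 16.4% were called higher and 31.7% lower. The exchanged plates gave 3 higher and 0 lower of 6 for this list (11.3% and 18.4% of all features). Nr3c1, the glucocorticoid receptor, averaged 41.6 ± 74.4 FPKM in P7.FB.1 (7 of 10 cells) and 3.62 ± 7.83 in P7.FB.2 (5 of 21), and was in 12 of 16 and 10 of 34 cells on the exchanged plates. Of the calcitonin receptor partners, 3 reached a mean of 1 and all 3 were called lower (31.7% of all features). Ramp2 and Ramp3, which turn Calcr into receptors for other peptides, were in 1 of 10 P7.FB.1 cells each, against 6 and 7 of 21 P7.FB.2 cells. Of the 3, 2 were called lower on the exchanged plates (18.4% of all features), and Ramp3 was within 2-fold there. In the galanin family, Galr1 and Galr2, its receptors, were listed at 0 in P7.FB.1 and found in 3 and 2 of 21 P7.FB.2 cells, and Galp was listed at 0 in both.

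Of the 9 genes for dopamine and GABA, 0 were called higher in P7.FB.1 and 6 lower. Among all features 16.4% were called higher and 31.7% lower, and these shares also stand beside the peptide counts below. Th averaged 730 ± 634 FPKM in P7.FB.1 (10 of 10 cells) and 805 ± 1303 in P7.FB.2 (20 of 21), and Gad1 207 ± 216 (10 of 10) and 173 ± 235 (17 of 21), so both were within 2-fold. Drd2, the dopamine autoreceptor, and Gch1, which supplies the cofactor of Th, were listed at 0 in all 10 P7.FB.1 cells and found in 8 and 5 of 21 P7.FB.2 cells. Slc6a3 was in 1 of 10 and 4 of 21 cells. Of 11 peptide processing genes 1 was called higher, Pcsk1n at 472 ± 221 FPKM against 227 ± 95.5, and 2 lower, and on the exchanged plates Pcsk1n was within 2-fold, at 124 ± 60.9 and 65.75 ± 49.1. Of 10 other peptide genes that reached a mean of 1, 5 were called higher (Cartpt, Nts, Oxt, Pdyn and Trh) and 4 lower (Npy, Penk, Sst and Tac1), of which Nts and Penk were called the other way on the exchanged plates.

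Markers of other cell types were checked in the same cells. In P7.FB.1 the 5 microglial, 4 endothelial and 5 pituitary markers were found in no cell, with all 5 pituitary markers (Gh, Prl, Tshb, Pou1f1 and Cga) listed at 0, while in P7.FB.2 the microglial and pituitary markers were found in no cell and 1 of the 4 endothelial markers was, with a summed level of up to 62.9 FPKM. The summed astrocyte markers reached 45.8 FPKM in P7.FB.1 (3 of 5 found) and 187 in P7.FB.2 (5 of 5), the oligodendrocyte markers 73.6 (2 of 5) and 77.8 (3 of 5), and the tanycyte and ependymal markers 164 (2 of 5) and 55.5 (3 of 5), with Rax listed at 0 in both. The 5 neuron markers were all found in both clusters, with summed levels from 898 through a median of 1537 to 3082 FPKM in P7.FB.1 and from 687 through 3545 to 4479 in P7.FB.2. The median oligodendrocyte sum was higher in P7.FB.1, at 16.95 FPKM against 4.14 (7.18 and 1.30 on the exchanged plates), and the median neuron sum was lower (389 and 756 on the exchanged plates). The part of these markers in the members' values was not tested.

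Across regions at P7, compared on 1 plate, 6 of 8 members were called higher in FB than in MB (13.8% of 13041 features) and all 8 higher in FB than in OB (31.1% of 12867 features). The exchanged plates again gave counts of 6 and 8 (5.32% and 15.6% of all features). Ghrh averaged 2447 ± 3990 FPKM in P7 FB (15 of 31 cells, 48.4%, interval 30.2 to 66.9%), from 0 through a median of 0 to 12523. It averaged 4.20 ± 10.5 FPKM in P7 MB (8 of 30 cells, at most 38.5) and was listed at 0 in all 16 P7 OB cells. Ghrh on the exchanged plates averaged 986 ± 1820 in FB, 1.28 ± 4.65 in MB (4 of 45, at most 22.9) and 0.48 ± 1.32 in OB (7 of 52, at most 6.79). Outside the forebrain Ghrh was thus found at P7 only at these low levels, on these 3 plates. None of those 8 P7 MB cells had Esr1 and 2 of them had Gal, and Gad1 was found in no P7 MB cell of that plate.

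Gal averaged 776 ± 1221 FPKM in P7 FB (22 of 31 cells, median 160), 34.6 ± 76.2 in P7 MB (14 of 30, at most 340) and 49.5 ± 112 in P7 OB (5 of 16, at most 430). Gal was the one member found at over 1 FPKM in more than 1 cell of the bulb on the matching plate, and on the exchanged plates it was in 16 of 52 OB cells, at most 696. Ghr averaged 18.9 ± 37.98 FPKM in FB (9 of 31) and 9.63 ± 16.22 in MB (12 of 30), within 2-fold, and was listed at 0 in OB. Of the 12 MB cells with Ghr, 10 were among the 15 cells of cluster P7.MB.1 (66.7%, interval 38.4 to 88.2%), where the mean was 17.4 ± 19.8. The exchanged plates had Ghr in 22 of 45 MB cells, 15 of them among the 24 of P7.MB.1, and also in 4 of 52 OB cells.

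Esr1 averaged 28.2 ± 57.8 FPKM in FB (11 of 31), 0.52 ± 2.65 in MB (1 of 30) and was listed at 0 in OB. Calcr averaged 69.5 ± 111 in FB (12 of 31), 0.61 ± 2.68 in MB (2 of 30) and was listed at 0 in OB. Arhgap36 averaged 155 ± 263 in FB (23 of 31), 3.04 ± 8.91 in MB (4 of 30) and was listed at 0 in OB. Igsf1 averaged 58.99 ± 72.4 in FB (23 of 31), 15.4 ± 18.24 in MB (15 of 30) and reached at most 0.49 in OB. These genes shared the order FB, MB, OB, and forebrain cells without them overlapped the other regions.

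Prlr differed less between FB and MB, with 7.52 ± 24.0 FPKM in FB (6 of 31), 6.33 ± 17.4 in MB (7 of 30) and 2.45 ± 9.79 in OB, where 1 of 16 cells had it, at 39.2. The exchanged plates had Prlr in 6 FB cells of 50, 12 MB cells of 45 and no OB cell of 52, and its mean in MB (2.85 ± 6.54) was above that in FB (1.68 ± 5.56). The median label gene count was 3310 in P7 OB against 5164 in P7 FB and 6126.5 in P7 MB, so zeros in OB stand beside the fewest genes per cell. Its part in them was not tested.

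**Figure D3:**
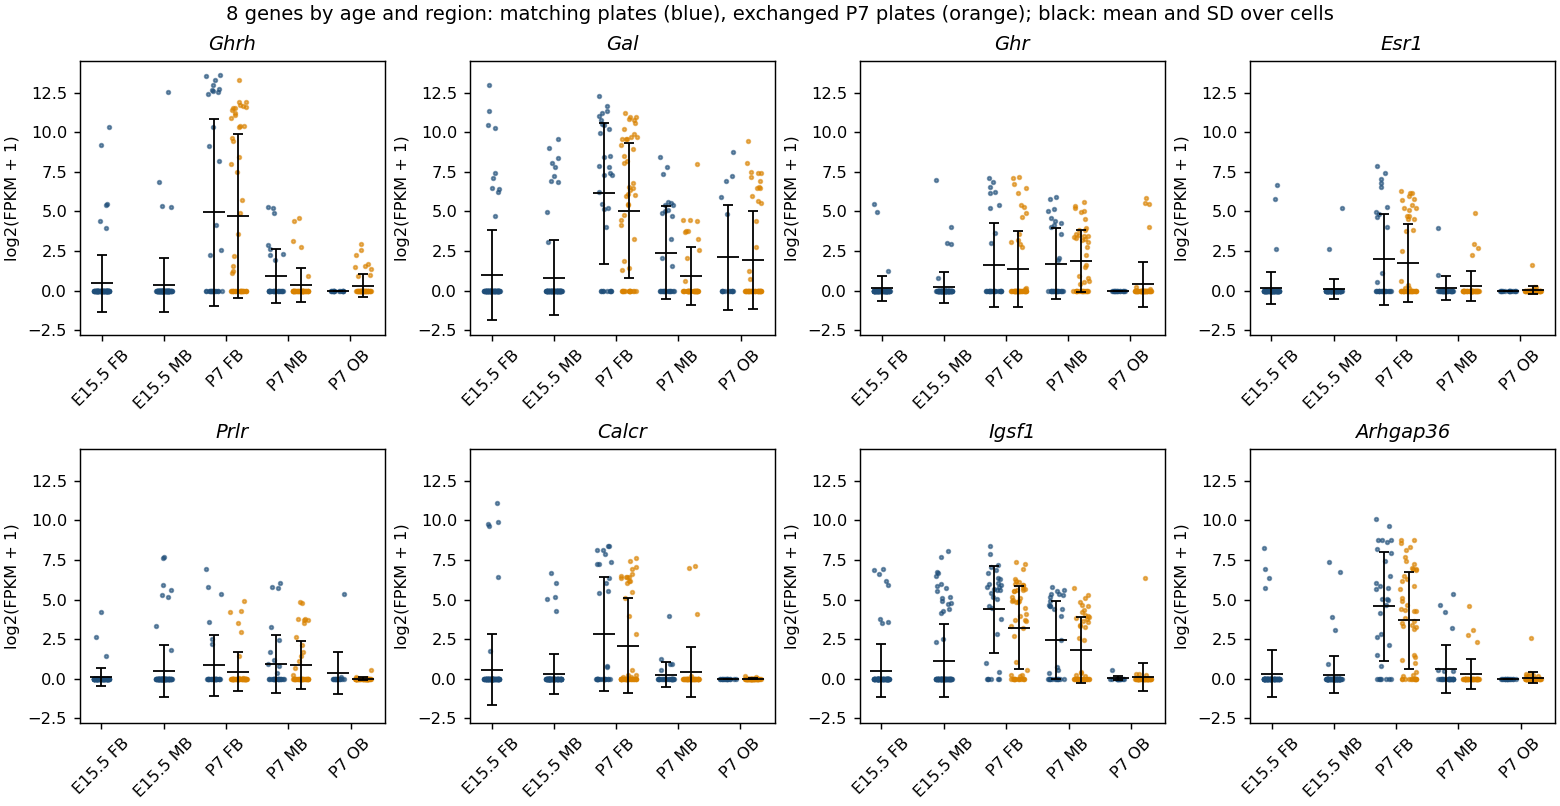
Each panel shows 1 gene in every passed cell as log2(FPKM + 1) by age and region, with matching plates in blue, the exchanged P7 plates in orange, and the mean and SD over cells in black. Ghrh lies above 12 on this scale in P7 FB cells and in 1 E15.5 MB cell, and the cells with Ghr and with Prlr overlap in level between P7 FB and P7 MB.

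Between ages in the forebrain, 7 of 8 members were called higher at P7 than at E15.5 (6.73% of 14088 features) and Calcr was within 2-fold. Ghrh averaged 23.8 ± 155 FPKM in E15.5 FB and was found in 6 of 84 cells (7.14%, interval 2.67 to 14.9%), at 1306, 576, 43.8, 40.9, 19.9 and 14.4. Gal averaged 165 ± 941 (10 of 84, the highest at 8093 and the next at 2600), so single embryonic cells reached the P7.FB.1 range of Gal. Ghr, Esr1 and Prlr were each in 3 of 84 cells, Arhgap36 in 4 and Igsf1 in 8. Means at E15.5 were 0.89 ± 5.69 FPKM for Ghr, 1.89 ± 12.3 for Esr1, 0.29 ± 1.97 for Prlr, 6.73 ± 37.4 for Arhgap36 and 5.92 ± 22.8 for Igsf1.

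The summed FPKM per cell had a median of 517940 in P7 FB and 1054300 in E15.5 FB, and the median log2 difference of all features was -1.20. With each cell rescaled to the same total it was -0.25, and 8 of 8 members were then called higher (15.07% of features), Calcr among them at 1.35 on the log2 scale. Under that scaling 37.2% of all calls were higher at P7, against 10.3% without it. The median label gene count was 5164 and 5554.5.

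Calcr at E15.5 rested on few cells of 1 plate. Of 84 E15.5 FB cells 6 had it, at 2200, 952, 861, 787, 84.7 and 2.31 FPKM, and its mean was 58.2 ± 287 FPKM. The highest 5 were on 1 plate and the cell at 2.31 on the other. Against the 31 P7 FB cells the log2 difference was -0.70 with the E15.5 plate that held the high cells and 6.06 with the other plate. In 4 of those 6 cells Gal was found as well. The cell with Ghrh at 1306 FPKM also had Gal at 1403, Calcr at 787, Esr1 at 53.4, Th at 2911 and Isl1 at 535, and the second cell with Ghrh, Gal and Calcr had 40.9, 2600 and 861 FPKM with Th and Isl1 listed at 0.

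In the embryonic midbrain 1 cell stood apart. Ghrh was found in 4 of 88 E15.5 MB cells, 1 of them at 5946 FPKM and the others at 116, 40.3 and 37.9. The cell at 5946, labelled midbrain cluster E15.MB.1, had Gal at 758, Esr1 at 35.8, Calcr at 18.3, Arhgap36 at 7.32 and Igsf1 at 3.96 FPKM, with Th at 967, Gad1 at 282 and Isl1 at 280. It held 6 of the 8 members, where the median E15.5 MB cell held 0. Its Ghrh lay within the range of P7.FB.1 cells and made up 96.8% of the summed Ghrh of its group.

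Between the regions at E15.5, 2 members were called higher in FB (Gal and Calcr, where 9.41% of 14405 features were) and 3 lower (Ghrh, Prlr and Igsf1, where 8.46% were). The Ghrh difference was -1.51 on the log2 scale, 2.94 without the single midbrain cell at 5946 FPKM, and 2.61 and -3.11 on the 2 plates taken alone. The midbrain cell was on the second of these. The Calcr difference was 3.95 over both plates, 5.15 on one and -2.05 on the other. Prlr averaged 6.74 ± 31.2 FPKM in MB (8 of 88 cells) and 0.29 ± 1.97 in FB (3 of 84), and Igsf1 13.7 ± 41.2 in MB (19 of 88, 21.6%, interval 13.5 to 31.6%) and 5.92 ± 22.8 in FB (8 of 84, 9.52%, interval 4.20 to 17.9%). Gal averaged 28.6 ± 110 in MB (10 of 88).

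By mean log2(FPKM + 1), the 5 groups were ordered P7 FB, P7 MB, E15.5 FB, E15.5 MB and P7 OB for Ghrh (4.94 ± 5.88, 0.92 ± 1.70, 0.46 ± 1.80, 0.34 ± 1.70 and 0) and for Arhgap36 (4.57 ± 3.43, 0.63 ± 1.52, 0.33 ± 1.48, 0.25 ± 1.18 and 0). P7 FB was also first for Gal, Esr1, Calcr and Igsf1, and P7 MB was first for Ghr (1.70 ± 2.25 against 1.62 ± 2.68 in P7 FB) and Prlr (0.94 ± 1.85 against 0.85 ± 1.93). Of neighbours in these orders, only P7 FB and P7 MB for Arhgap36 differed by more than the larger of their SDs. By cluster, P7.FB.1 was first for 7 members, and it differed from the next cluster by more than the larger SD for Ghrh (11.6 ± 4.11 against 1.80 ± 2.35 in P7.MB.2), Gal (9.90 ± 3.55 against 4.35 ± 3.75 in P7.FB.2), Esr1 (5.45 ± 2.31 against 0.57 ± 1.50 in P7.MB.4), Calcr (5.75 ± 3.18 against 1.44 ± 2.89 in P7.FB.2) and Arhgap36 (7.67 ± 2.93 against 3.10 ± 2.59 in P7.FB.2). It did not for Ghr (4.40 ± 2.67 against 2.88 ± 2.37 in P7.MB.1) and Igsf1 (4.64 ± 3.39 against 4.26 ± 2.46 in P7.FB.2), and for Prlr it was among the 3 clusters listed at 0. These orders cover the matching plates only, and how many of all features were first in P7.FB.1 was not computed.

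**Figure D4:**
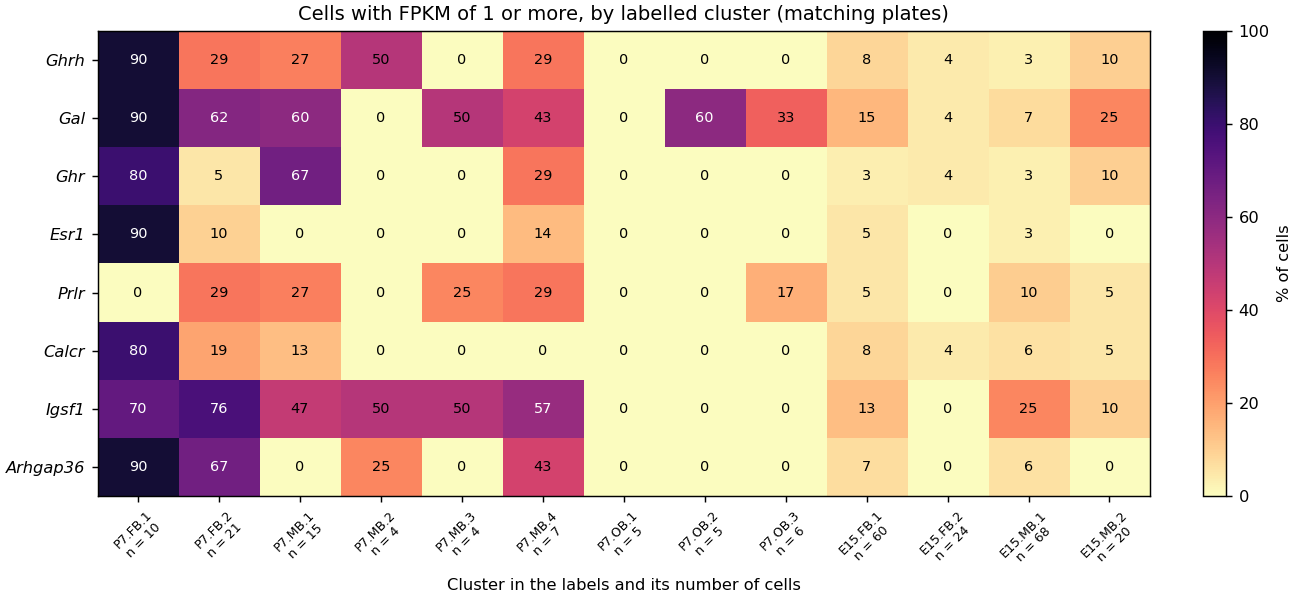
Share of cells with FPKM of 1 or more for each gene (rows) in the 13 labelled clusters (columns, with their number of cells) on the matching plates, P7 forebrain clusters first. The P7.FB.1 column is dark for every gene but Prlr, the P7.OB.1 column is at 0 for all 8, and Ghr stands out in P7.MB.1.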

How the data were processed

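RNA of single sorted cells was measured with Smart-Seq2, with 20 preamplification and 14 enrichment cycles per the labels' protocols. The authors deposited 1 table of FPKM values, made with HISAT2 and Cuffnorm on mm10 per the submitters' processing notes, and their versions and the annotation are not given in the sources used here. Low FPKM values showed no whole-fragment steps (in 50 pairs of cells a median of 2.35% of low-gene ratios fell in the fullest 2% window), so the depth per cell is unknown, and values of exactly 0 are described as listed at 0.

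Identifiers were matched to GENCODE M21 symbols for 28636 of 28952 features. Groups, plates, clusters and quality verdicts came from the labels. Per set of cells the mean, SD, and share at FPKM of 1 or more were computed, and sets were compared as log2 of the ratio of mean FPKM + 1 over features with a mean of 1 or more, at least 2-fold being a call. Folds on this scale understate low genes. With 1 pool per group no test was made. The most alike genes were those with the highest r among features with a mean FPKM of at least 5 that were found in at least 25% of P7 FB cells, the 5 highest for Ghrh and the 3 highest for the others, named at r of 0.6 or more, and list genes were named where a group mean reached 5. The few list genes below that (Ghrhr, Ghsr, Oxt, Galr1 and Galp), and the marker genes named, were added after their values were seen. The members and lists were chosen with earlier results of these data known. Alternatives covered the detection level, the pseudocount, scaling, filters, plates, cells and quality verdicts. Python 3.11.15, pandas 2.3.3, numpy 2.4.6, scipy 1.17.1 and matplotlib 3.10.9 were used, and the calls were checked on simulated data.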

Additional observations from a re-analysis of the deposited data

Results flagged for a closer look

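Of the 10 P7.FB.1 cells on the matching plate, 1 was far below the others, and its gap to the next cell took up a share of the cluster's whole range, on log2(FPKM + 1), of 0.91 for Ghrh, 0.808 for Gal, 0.577 for Arhgap36 and 0.516 for Esr1, each above the 95% critical value of Dixon's test for 10 cells. For samples from a normal distribution, chance alone takes about 1 of 20 groups past that critical value. Cells of 1 pool with values listed at 0 are not such samples, so that rate cannot be applied and the shares are descriptions. Of 7 genes looked at (Prlr was listed at 0 throughout), these 4 passed the critical value. Ghr, Calcr and Igsf1 had no gap at the low end because more than 1 cell was listed at 0. All 4 gaps come from the same cell, the one listed at 0 for all 8 genes. Without it, Gal, Esr1 and Arhgap36 were each in 100% of the remaining cells. On the exchanged plates no P7.FB.1 cell was without Ghrh, Gal or Esr1.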

How the results depend on the processing

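Of the recomputed differences of single genes, 252 stayed within 1.5 times the main fold, 146 moved further and 5 changed direction. Of the shares of cells, 97 of single genes stayed within the main interval and 16 did not, and of those of Ghrh in P7.FB.1 and of Ghrh with Gal 11 did and 3 did not. Of the counts of members at least 2-fold apart, 49 stayed within 1.5 times the main count and 2 did not. These totals include the reading of all 3 P7 plates by column name. Without that reading, 245 differences stayed, 121 moved further and 5 changed direction. Of all shares together 103 then stayed and 7 did not, and of the counts 45 stayed and 2 did not. Between E15.5 FB and E15.5 MB the count of 5 became 0 by means of log2(FPKM + 1) and 8 on 1 plate alone. The share of all features called was not computed under these settings, so these counts say nothing about the members in particular. The Ghrh difference between those groups turned from -1.51 to 0.12 by means of log2(FPKM + 1), to 1.53 leaving out each gene's highest cell, to 2.61 on that plate and, as an alternative chosen after seeing the data, to 2.94 without the highest midbrain cell; the Calcr difference turned to -2.05 on the other plate. Few cells carry these values. The share of P7.FB.1 cells with Ghrh was 90% in the main cells, 100% on the exchanged plates and 34.6% with all 3 P7 plates read by column name. Ghrh with Gal was in 41.9% of P7 FB cells, 42% on the exchanged plates and 17.3% by column name. By name, label gene counts did not follow the columns on 2 of these 3 plates (correlations of -0.0338 and -0.0519). The cause of the lower shares by name was not tested. Leaving out the P7.FB.1 cell listed at 0 was also chosen after seeing the data. No paired analysis was possible because each group is 1 pool and cell numbers in the labels pair nothing. Cell depth is unknown, and a gene listed at 0 may be below detection.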
